A study of Rattus norvegicus with 172 samples.

Results

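Bile ducts are lined by cholangiocytes, and the genes described here are 9 that mark those cells or the ductular reaction, the appearance of small duct-like strands of cells in an injured liver. They were taken by symbol: Sox9 (ENSRNOG00000002607), Krt7 (ENSRNOG00000008057), Krt19 (ENSRNOG00000014233), Epcam (ENSRNOG00000015667), Cd24 (ENSRNOG00000000321), Cftr (ENSRNOG00000055103), Spp1 (ENSRNOG00000043451), Krt8 (ENSRNOG00000009779) and Krt18 (ENSRNOG00000047393). These are 9 of the 32883 genes in each count table, of which 19777 carry a symbol, and all 9 were found. Krt8 and Krt18 are made by hepatocytes as well as by duct cells, so of the 9 they say least about ducts.

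The study measured poly(A) RNA of whole liver by sequencing in 70 male Fischer 344 rats, after 90 days on furan, 3-methylfuran or neither. Furan is a small ring molecule formed when food is heated, and 3-methylfuran is the same ring with a methyl group. Furan was given at 0.03 (8 rats), 0.12 (8 rats), 0.5 (7 rats) and 2.0 mg/kg body weight per day (7 rats), with 8 control rats. The daily 3-methylfuran doses were 0.02, 0.075 and 1.0 mg/kg body weight (8 rats each), with 8 control rats of its own. Every group, controls included, was of the same sex and strain, and the labels give neither age nor litter. Each library came from 1 rat, so the spread given below is between rats.

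In a healthy liver the hepatocytes make bile and the ducts carry it away while adding bicarbonate and water. When the liver is injured, cells with duct features can spread out from the portal tracts, usually together with matrix-producing cells and macrophages, and hepatocytes can switch on some duct genes as well. Sox9 is a transcription factor of the duct lineage, Krt7 and Krt19 build its keratin skeleton, Epcam and Cd24 sit on the cell surface, Cftr is the chloride channel of the apical membrane, and Spp1 encodes the secreted matrix protein osteopontin. Measurements on whole liver cannot tell fewer cells of a type from less RNA per cell, or more cells from more RNA per cell.

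Total counts ran from 11.4 to 27.7 M per furan-experiment rat and from 11.1 to 50.05 M per 3-methylfuran-experiment rat. Levels are given as CPM (counts scaled to a common library total) after TMM scaling, and are compared between rats for 1 gene. Gene lengths are not given, so reads or CPM of different genes, or summed over genes, do not measure transcript numbers. The summed level of 10 hepatocyte genes was 115927 to 241712 CPM over the 9 groups. Some duct genes had few reads in this mixture: in furan controls Sox9 had 1 to 11 reads per rat and Cftr 1 to 6, while Krt8 had 1536 to 3241. At furan 2.0, rats ME081_L, ME082_L, ME083_L and ME085_L stood apart from ME086_L and ME089_L in several of the 9 genes, and at furan 0.5 MD063_L and MD069_L stood apart from the other 5, so those results are given rat by rat.

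The stretches of 250 bases upstream of the transcription start are shown for the 3 genes in which a search for 6 short transcription factor motifs found a match: Spp1, with the widest spread between rats, and Epcam and Cd24, which were higher with both compounds. They are from RefSeq on the GRCr8 build, not the build of the reads, and read 5′ to 3′ on the gene's own strand: chr14:5619805-5620054 on the minus strand for Spp1, chr6:12649679-12649928 on the minus strand for Epcam and chr20:48656227-48656476 on the plus strand for Cd24. Capitals mark the matches.
Spp1: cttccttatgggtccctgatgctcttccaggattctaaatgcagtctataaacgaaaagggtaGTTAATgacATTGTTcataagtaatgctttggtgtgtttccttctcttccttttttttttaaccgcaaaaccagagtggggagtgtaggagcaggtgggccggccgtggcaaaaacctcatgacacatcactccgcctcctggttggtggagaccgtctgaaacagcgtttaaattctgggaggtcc
Epcam: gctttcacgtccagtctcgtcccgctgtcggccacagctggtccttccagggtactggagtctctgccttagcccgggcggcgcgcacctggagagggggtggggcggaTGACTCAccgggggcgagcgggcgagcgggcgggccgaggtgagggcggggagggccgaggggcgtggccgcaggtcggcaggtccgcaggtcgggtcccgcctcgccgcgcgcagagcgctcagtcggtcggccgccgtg
Cd24: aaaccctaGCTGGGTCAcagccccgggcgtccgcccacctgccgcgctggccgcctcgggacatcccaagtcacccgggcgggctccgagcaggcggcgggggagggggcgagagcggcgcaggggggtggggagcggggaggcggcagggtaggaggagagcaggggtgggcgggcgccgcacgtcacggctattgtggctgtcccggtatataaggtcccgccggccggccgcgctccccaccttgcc
The capitals in Spp1 are the HNF1 motif GTTAAT, first base at -187 from the start, and ATTGTT at -178, the reverse complement of the SOX letters AACAAT. In Epcam they are the AP-1 motif TGANTCA at -141, and in Cd24 GCTGGGTCA at -242, the reverse complement of the antioxidant element TGACNNNGC.

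Both strands were searched, and the marked matches do not overlap one another. Among 33469 rat promoters of the same length, 6.45% held the HNF1 motif, 10.3% the SOX letters, 6.34% the AP-1 motif and 10.1% the antioxidant element. The TEAD letters GGAATG (12.1% of promoters) and the RBPJ letters TGGGAA (22.1%) were in none of the 6 promoters that could be searched. Those of Cftr, Krt8 and Krt18 held none of the 6 motifs. The table has 6 of the 9 genes, and Krt7, Krt19 and Sox9 are not among them. A match is a run of letters and was not tested as a binding site.

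The highest furan dose was set against its controls to learn whether duct genes moved with the parent compound. At furan 2.0, 8 of the 9 genes rose and 0 fell, the exception being Krt7, which missed the threshold. Of all 12727 genes tested, 24.0% were called higher and 22.5% lower, with a gene called at an edgeR adjusted p under 0.05. The median log2 fold change was 1.63 over the 9 genes and 0.02 over all genes tested. All 9 passed the count filter in the fit of all furan groups, but Sox9, Cftr and Spp1 did not with furan 2.0 and controls alone, so the count is a description. Without a single rat the number that rose was 8 or 9, whichever of the 15 rats was left out.

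**Figure D1:**
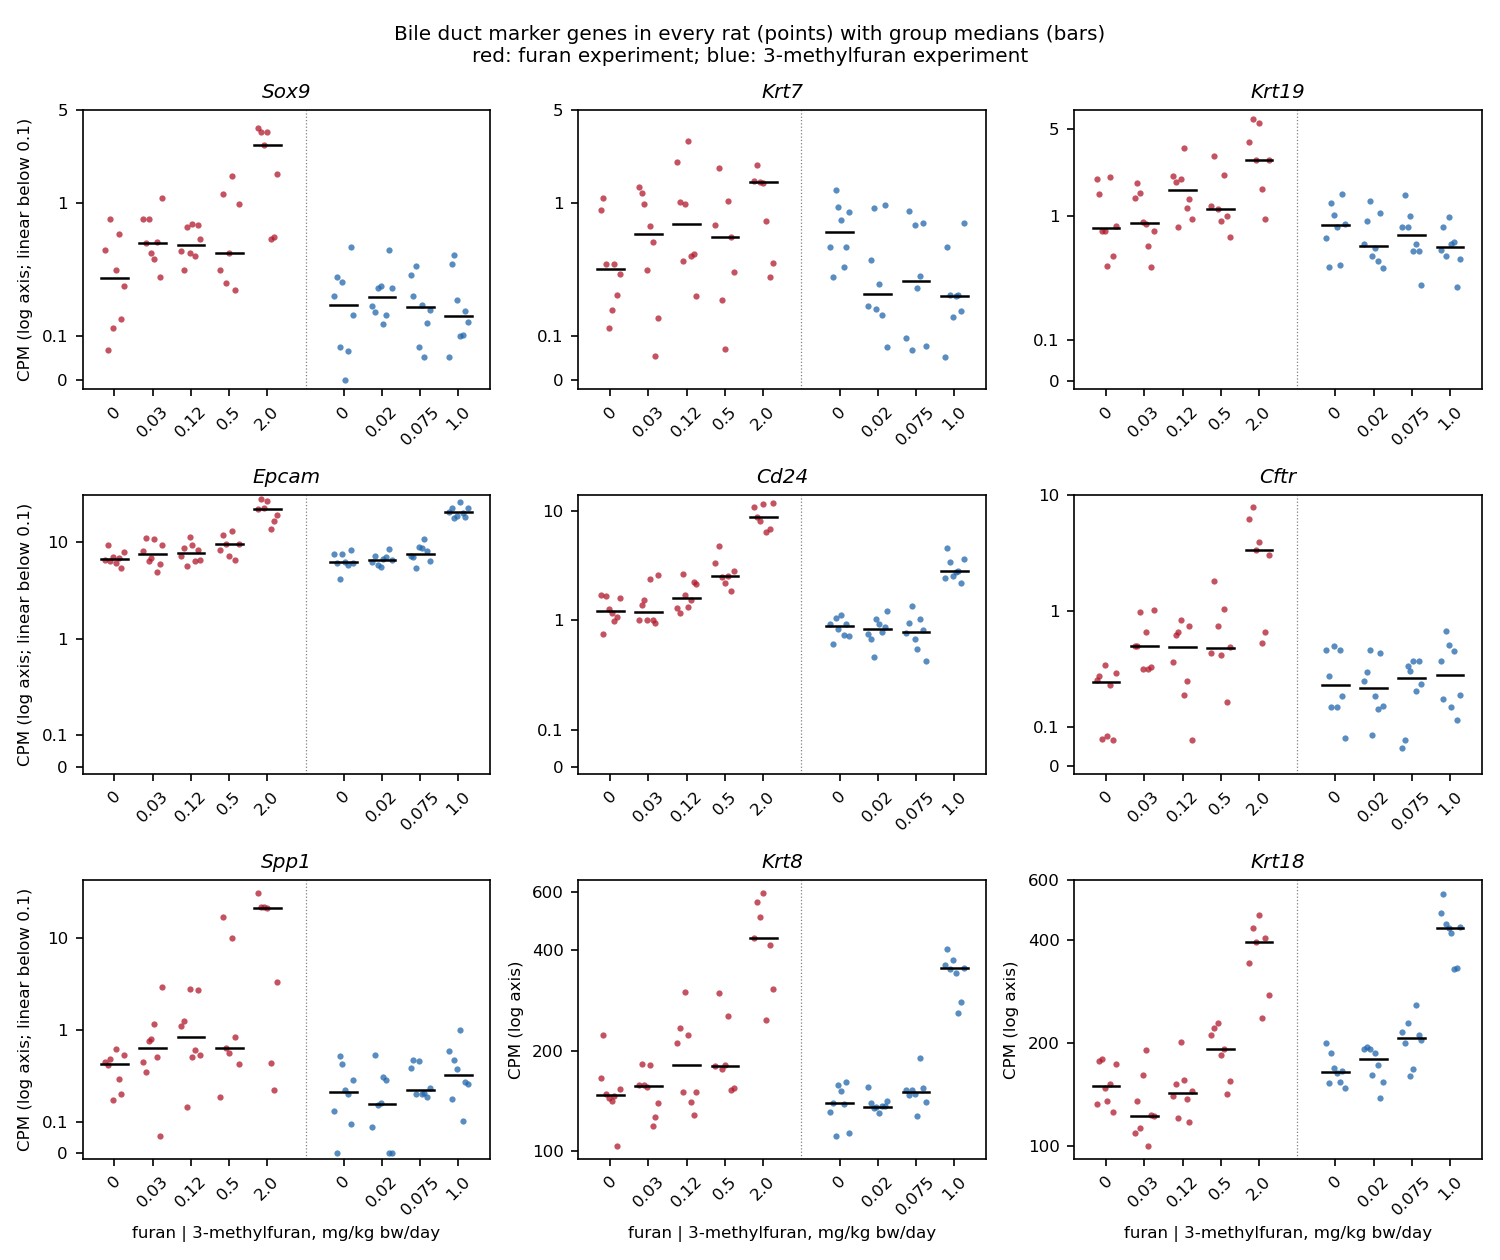
CPM of each of the 9 genes in every rat (points), with the group median (black bar), by dose in mg/kg body weight per day, for the furan experiment (red, left) and the 3-methylfuran experiment (blue, right); 0 marks controls, and the axes are logarithmic, linear below 0.1 CPM except for Krt8 and Krt18. Spp1 at furan 2.0 runs from 0.221 to 30.4 CPM between rats, while Epcam at 3-methylfuran 1.0 stays within 17.8 to 25.97 CPM.

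Sox9, the duct lineage factor, had 0.538 CPM in the lowest, 2.73 in the median and 3.67 in the highest rat at furan 2.0, against 0.0687, 0.274 and 0.76 CPM in controls. Of 7 dosed rats, 5 lay above every control, and ME086_L and ME089_L did not. The rise was 2.77 ± 0.43 on the log2 scale (SE, edgeR adjusted p = 2.18e-06). It rested on 10 to 90 reads per dosed rat, against 1 to 11 per control.

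The duct keratins differed in their calls. Krt19, the keratin most used to stain bile ducts, had 0.939, 2.82 and 6.1 CPM in the lowest, median and highest rat at furan 2.0, against 0.391, 0.793 and 2.05 CPM in controls, a rise of 1.63 ± 0.38 (edgeR adjusted p = 0.000566). Krt7, the other duct keratin, had 0.276, 1.43 and 1.95 CPM at furan 2.0, against 0.116, 0.32 and 1.1 CPM in controls. Its log2 difference of 1.35 ± 0.58 had an edgeR adjusted p of 0.0539 and a 95% interval of 0.17 to 2.53. Only 4 of 7 dosed rats lay above every control for Krt7, and the call hung on single rats: leaving out MC004_L, the control with the highest Krt7, gave 1.69 (adjusted p = 0.0244), and leaving out ME092_L gave 1.52 (adjusted p = 0.0322).

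The surface genes lay above every control in 7 of 7 rats. Epcam, an adhesion molecule, had 13.8, 21.9 and 27.8 CPM in the lowest, median and highest rat at furan 2.0, against 5.33, 6.68 and 9.35 CPM in controls (1.61 ± 0.17, edgeR adjusted p = 1.97e-09). Cd24, a small anchored glycoprotein found on progenitor-like and immature cells, had 6.35, 8.86 and 11.8 CPM, against 0.756, 1.22 and 1.72 CPM in controls (2.83 ± 0.22, edgeR adjusted p = 2.57e-12). The order of rats was not the same for the pair: ME092_L had the highest Cd24, while 4 other rats had more Epcam.

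Cftr, the channel that drives chloride and through it bicarbonate into bile, also lay above every control in 7 of 7 rats. It had 0.538, 3.35 and 7.87 CPM in the lowest, median and highest rat at furan 2.0, against 0.0674, 0.245 and 0.347 CPM in controls, a rise of 4.10 ± 0.52 (edgeR adjusted p = 6.03e-08). Between dosed rats it differed 14.6-fold. The lowest pair, ME086_L and ME089_L, had 11 and 12 reads, and the highest, ME082_L, had 182.

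Spp1, osteopontin, had the largest mean rise of the 9 and the widest spread. ME081_L had 30.4 CPM, ME083_L 21.7, ME082_L 21.4, ME085_L 20.8, ME092_L 3.27, ME086_L 0.44 and ME089_L 0.221 CPM, against 0.174 to 0.625 CPM in controls (median 0.43). Thus 4 rats lay within 20.8 to 30.4 CPM, 1 lay between, and 2 lay inside the control range. The fitted rise was 5.15 ± 0.94 (edgeR adjusted p = 3.19e-05), an average over rats that differed 138-fold. The same 4 rats were highest and the same 2 lowest in each of the 2 sequencing runs: ME081_L had 367 and 380 Spp1 reads, and ME089_L had 0 and 4 (a count of 0 allows up to 3 reads, for counting error alone).

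The keratin pair that hepatocytes share, Krt8 and its partner Krt18, also lay above every control in 7 of 7 rats. Krt8 had 247, 435 and 595 CPM in the lowest, median and highest rat at furan 2.0, against 104, 147 and 223 CPM in controls (1.51 ± 0.18, edgeR adjusted p = 3.65e-08). Krt18 had 238, 396 and 474 CPM, against 126, 150 and 180 CPM in controls (1.26 ± 0.14, edgeR adjusted p = 4.57e-09). Dosed rats differed 2.41-fold in Krt8 and 1.99-fold in Krt18. ME086_L had the lowest value of both, and ME089_L, the lowest in Spp1, was among the highest 4 in Krt18. Krt8, Krt18 and Cd24 have processed copies in mammalian genomes, and how reads shared between copies were counted is not given in the sources used here.

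**Figure D2:**
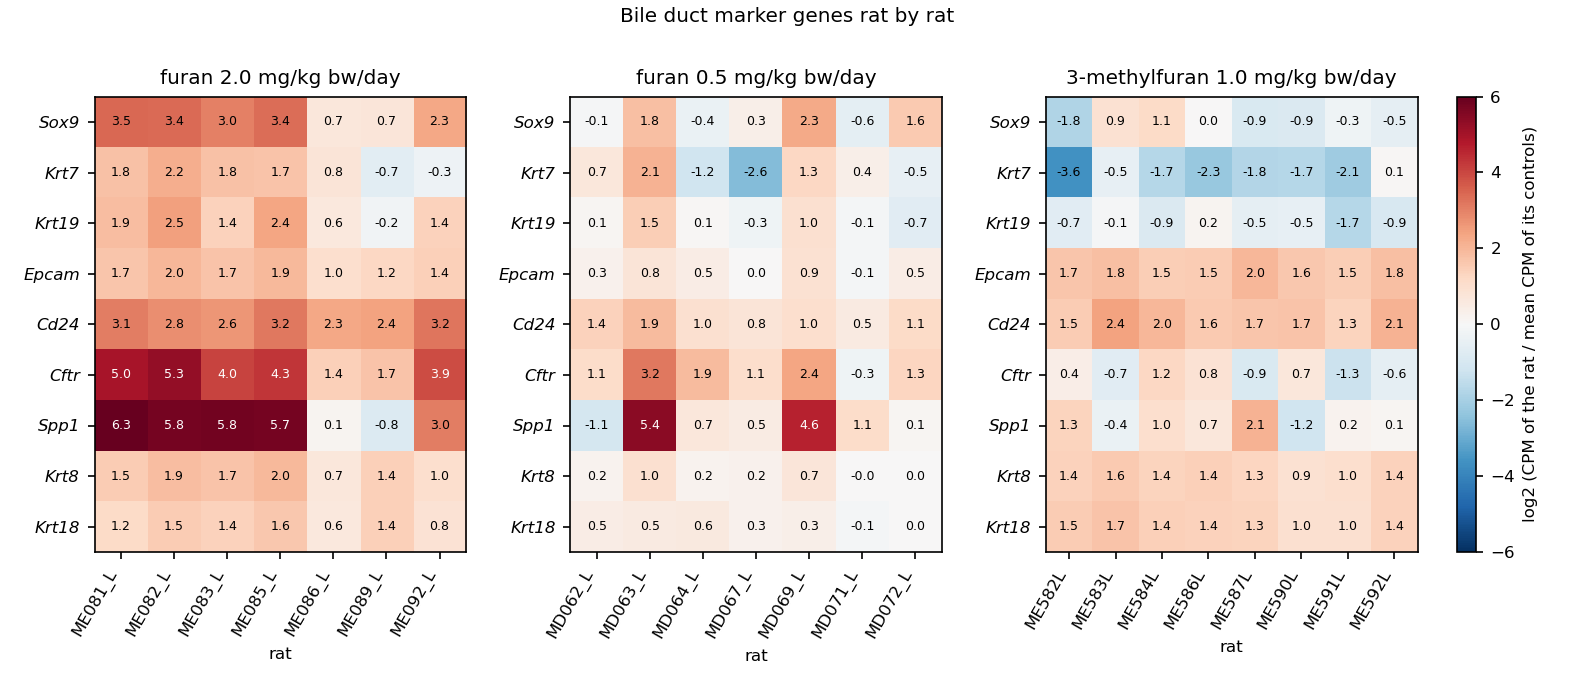
Each rat's CPM over the mean of its controls, as log2 (colour and printed value), for the 9 genes (rows) and every rat (columns) at furan 2.0, furan 0.5 and 3-methylfuran 1.0. At furan 2.0 Spp1 is 5.72 to 6.26 in 4 rats and -0.84 in ME089_L, whereas Cd24 is 2.31 to 3.20 in all 7.

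Across rats at furan 2.0 the same animals led most of the genes. ME081_L, ME082_L, ME083_L and ME085_L were the highest 4 of 7 for Sox9, Krt7, Epcam, Cftr, Spp1 and Krt8. For Krt19 and Cd24, ME092_L took the place of ME083_L among the highest 4, and for Krt18 ME089_L took the place of ME081_L. The gap between the lowest of these 4 and the next rat was wide for Spp1, at 20.8 and 3.27 CPM, and narrow for Krt8, at 435 and 415 CPM. The libraries also differed in genes of other cells: the 15 stellate cell and myofibroblast genes summed to 607 to 1033 CPM in those 4 rats and to 251 to 258 CPM in the other 3, against 251 to 409 CPM in controls. Type I collagen Col1a1 was 86.1 to 186 CPM in the 4 and 9.01 to 13.7 CPM in the other 3, against 4.92 to 19.5 CPM in controls. ME092_L lay above every control in Spp1, Cftr and Sox9 with its Col1a1 inside the control range.

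Genes of other cell types differed between the same rats. The macrophage gene Trem2 was 2.81 to 3.98 CPM in the 4 rats and 0.0978 to 0.276 CPM in the other 3, against 0 to 0.206 CPM in controls. The 15 macrophage genes summed to 383 to 960 CPM at furan 2.0, against 441 to 804 CPM in controls, with 5 of 15 called higher and 0 lower. The 10 hepatocyte genes summed to 115927 to 176804 CPM at furan 2.0, against 190836 to 216582 CPM in controls. Of these 10, 9 were called lower and 1, Apoa1, higher, with a median log2 fold change of -0.474. With library totals in place of TMM, the median of all genes at furan 2.0 was 0.417 in place of 0.021. The hepatocyte genes were fitted with TMM only, so their falls may depend on the scaling. Much of the hepatocyte sum is Alb, with a mean of 121289 CPM in controls and 82910 CPM at furan 2.0. ME086_L and ME089_L held the highest hepatocyte sums of that group. The 5 mesothelial genes, from the liver's surface cells, which also make keratins, summed to 6.3 to 38.5 CPM, against 2.81 to 20.4 CPM in controls, with the mesothelin gene Msln at 26.9 CPM in ME082_L and 4.48 CPM in ME089_L. No list had a gene at 0 in all rats of a group. The part of these cells in the duct gene results was not tested.

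**Figure D3:**
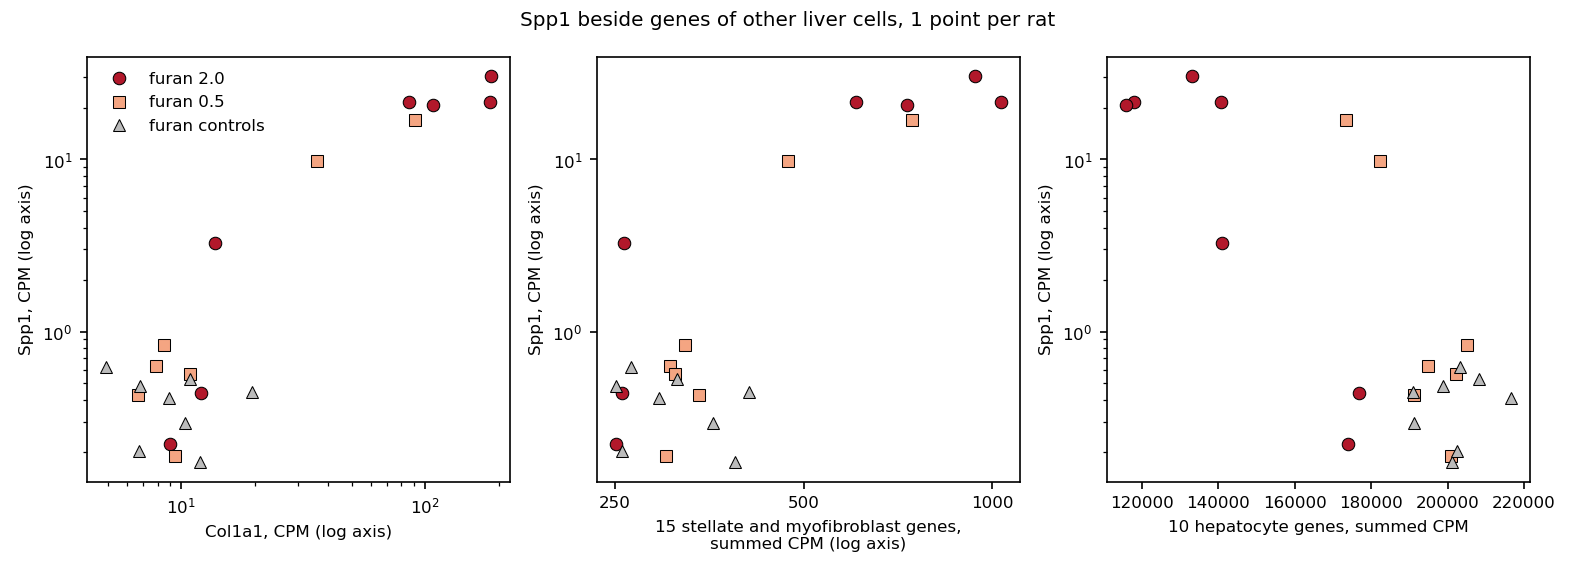
Spp1 in each rat at furan 2.0 (circles), furan 0.5 (squares) and in furan controls (triangles), against Col1a1 (left), the summed CPM of 15 stellate cell and myofibroblast genes (middle) and the summed CPM of 10 hepatocyte genes (right); the Spp1, Col1a1 and stellate axes are logarithmic. The 6 dosed rats with Spp1 above 9 CPM also have the 6 highest Col1a1 values of the 14 dosed rats; ME092_L has 3.27 CPM of Spp1 at 13.7 CPM of Col1a1.

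At furan 0.5, 2 of the 9 genes rose, Cd24 and Spp1, and 0 fell. Of all genes tested, 1.50% were called higher. Spp1 passed the count filter in the fit of all furan groups but not with furan 0.5 and controls alone. The count of 2 is therefore a description. The median over the 9 genes was 0.67, and 0.01 over all genes. Cd24 had 1.84, 2.56 and 4.74 CPM in the lowest, median and highest rat, against 0.756, 1.22 and 1.72 CPM in controls, so 7 of 7 dosed rats lay above every control (1.15 ± 0.23, edgeR adjusted p = 0.00291). The call held without each of the 15 rats in turn.

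The Spp1 call at furan 0.5 rested on a pair of rats. MD063_L had 16.9 CPM and MD069_L 9.82 CPM, while the other 5 had 0.188 to 0.836 CPM, against 0.174 to 0.625 CPM in controls. The fitted rise of 3.42 ± 0.99 passed narrowly (edgeR adjusted p = 0.0473). Without MD063_L it was 2.35 (adjusted p = 0.242), without MD069_L 3.09 (adjusted p = 0.0877), and it also missed the threshold without any one of the 8 control rats. These animals led other members too: MD063_L had the highest Krt7, Krt19, Cd24, Cftr and Krt8 of the group, and MD069_L the highest Sox9 and Epcam. Col1a1 was 91.0 CPM in MD063_L and 36.2 CPM in MD069_L, beside 6.65 to 10.9 CPM in the other 5 and 4.92 to 19.5 CPM in controls. Trem2 was 2.29 and 2.56 CPM in that pair, beside at most 0.251 CPM in the other 5.

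At furan 0.12 and 0.03, 0 of the 9 genes were called by edgeR, where 1.94% and 0.0707% of all genes were called in either direction. No other tool or setting run gave a call at these doses, and the unadjusted 95% interval left out 0 for 1 of the 9 genes at each, Krt7 at 0.12 and Cftr at 0.03. Of all 12727 genes tested, 1774 at 0.12 and 1162 at 0.03 had an unadjusted edgeR p under 0.05. The lowest adjusted p was 0.325 for Krt7 at 0.12 and 0.48 for Cftr at 0.03. Cftr in the lowest, median and highest rat was 0.0674, 0.245 and 0.347 CPM in controls and 0.316, 0.503 and 1.03 CPM at 0.03, and was 0.0669, 0.495 and 0.847 CPM at 0.12, a log2 difference of 1.40 at 0.03 with an interval of 0.16 to 2.64. It rested on 5 to 15 reads per rat at 0.03, and no difference was detectable at this depth after adjustment over 12727 genes.

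Of the neighbouring furan doses, 2.0 and 0.5 were tested against each other. Furan 2.0 was higher than furan 0.5 for 7 of the 9 genes (15.6% of all genes tested), from 0.94 ± 0.14 for Krt18 to 2.30 ± 0.45 for Cftr, with edgeR adjusted p of 2.17e-07 (Cd24) to 0.0121 (Krt19). Spp1 differed by 1.73 ± 0.73 (adjusted p = 0.0684), and by 2.80 (adjusted p = 0.00556) without MD063_L. Krt7 differed by 0.69 ± 0.56 (adjusted p = 0.366). At each lower step the ranges of neighbouring groups overlapped for all 9 genes. In order of mean CPM furan 2.0 was first for all 9. Controls were last except for Krt19 and Krt18, for which 0.03 was last, and Krt8, with a mean of 153 CPM in both. Between the ends the order did not always follow dose. Furan 0.12 stood above 0.5 for Krt7 and Krt19, and 0.03 stood above 0.12 for Sox9, Epcam and Cftr.

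The 3-methylfuran experiment gave another pattern. At 1.0 mg/kg, 4 of the 6 genes that passed the count filter rose (21.2% of all 11930 genes tested were called higher) and 1, Krt7, fell (22.5% were called lower). The median was 1.33 over these 6 genes and -0.001 over all genes. Sox9, Cftr and Spp1 did not pass the filter, so they are given by their reads.

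Epcam, Cd24, Krt8 and Krt18 lay above every control in 8 of 8 rats at 3-methylfuran 1.0. Epcam had 17.8, 20.2 and 25.97 CPM in the lowest, median and highest rat, against 4.17, 6.19 and 8.21 CPM in controls (1.69 ± 0.12, edgeR adjusted p = 3.88e-13). Cd24 had 2.18, 2.81 and 4.56 CPM, against 0.611, 0.885 and 1.12 CPM in controls (1.81 ± 0.19, edgeR adjusted p = 2.43e-09). Krt8 had 259, 353 and 402 CPM, against 111, 139 and 161 CPM in controls (1.31 ± 0.08, edgeR adjusted p = 1e-13). Krt18 had 329, 436 and 545.5 CPM, against 148, 165 and 201 CPM in controls (1.35 ± 0.10, edgeR adjusted p = 1.12e-12). The highest rat was 1.46 to 2.09 times the lowest for these 4 genes.

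The duct keratins did not rise with 3-methylfuran. Krt7 had 0.0533, 0.201 and 0.705 CPM in the lowest, median and highest rat at 1.0 mg/kg, against 0.278, 0.605 and 1.27 CPM in controls, and 6 of 8 dosed rats lay below every control. It fell by 1.36 ± 0.51 on the log2 scale (edgeR adjusted p = 0.0285) on 1 to 11 reads per dosed rat and 5 to 17 per control. Against the same controls Krt7 was -0.805 ± 0.454 at 0.075 mg/kg and -0.800 ± 0.508 at 0.02 mg/kg (edgeR adjusted p = 0.459 and 0.792). Between 1.0 and 0.075 mg/kg it differed by -0.55 ± 0.51 (edgeR adjusted p = 0.429), so no fall from the lower dose was detectable. The call at 1.0 mg/kg was lost without ME582L, ME586L, ME591L or either of the controls MC506L and MC507L, with values of -1.28 to -1.16. Krt19 had 0.268, 0.564 and 0.975 CPM at 1.0 mg/kg, against 0.389, 0.842 and 1.49 CPM in controls, and its difference of -0.50 ± 0.32 did not pass (edgeR adjusted p = 0.211, interval -1.15 to 0.15).

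The 3 genes below the filter had few reads, at most 20 per rat at 3-methylfuran 1.0. Sox9 had 1 to 6 reads per rat at 3-methylfuran 1.0, against 0 to 5 in controls. Cftr had 3 to 11 reads, against 1 to 7 in controls, and Spp1 had 2 to 20 reads, against 0 to 7 in controls. In a fit without the filter the log2 differences were -0.01 for Sox9, 0.18 for Cftr and 0.82 for Spp1, with adjusted p of 0.218 or more. No difference was detectable at this depth. The stellate cell and myofibroblast genes summed to 161 to 226 CPM at this dose, against 180 to 207 CPM in controls, and 0 of 13 tested were called. The 10 hepatocyte genes summed to 178945 to 231474 CPM, against 213680 to 236905 CPM in controls, with 1 called higher and 7 lower, and their part in these values was not tested. They were fitted with TMM scaling only, so their falls may depend on it.

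At 3-methylfuran 0.075 and 0.02, 0 of the 6 genes were called by edgeR, with 1.37% and 0.0335% of all genes called in either direction, and no other setting run called one. The unadjusted 95% interval left out 0 for 2 of the 6 genes at 0.075, Epcam and Krt18, and for 0 genes at 0.02. Of all 11930 genes tested, 1597 at 0.075 and 846 at 0.02 had an unadjusted edgeR p under 0.05. Krt18 came nearest at 0.075, at 160, 208 and 259 CPM, against 148, 165 and 201 CPM in controls (0.30 ± 0.10, edgeR adjusted p = 0.118). Between 1.0 and 0.075 mg/kg the same 4 genes were higher at 1.0 (16.9% of all genes tested), from 1.05 ± 0.10 for Krt18 to 1.91 ± 0.18 for Cd24.

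The compounds at their highest doses were then compared with each other, as the effect of furan 2.0 over its controls minus the effect of 3-methylfuran 1.0 over its own. The doses differ, as do the library kits of the experiments, and neither can be told apart from the compound. The furan effect was higher for 5 of the 9 genes and lower for 0, where 3.52% of all 12941 genes were called higher. Cftr differed by 3.92 ± 0.75, Sox9 by 2.78 ± 0.73, Krt7 by 2.70 ± 0.81, Krt19 by 2.13 ± 0.53 and Cd24 by 1.00 ± 0.31 (edgeR adjusted p of 0.000541 for Cftr to 0.0318 for Cd24). For Spp1 the difference of 4.32 ± 1.56 did not pass (adjusted p = 0.0753), and it passed without ME086_L (4.54, adjusted p = 0.0403) or ME089_L (4.54, adjusted p = 0.0398), the rats with the lowest Spp1. Sox9, Cftr and Spp1 did not pass the filter in the 3-methylfuran experiment and entered this comparison only in the joint fit with the furan rats, where they are high, so their values here are a description and the count of 5 is no support.

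For the other 3 genes no difference between the compounds passed. The Epcam difference was -0.09 with a 95% interval of -0.51 to 0.34, that of Krt8 0.20 with -0.21 to 0.61, and that of Krt18 -0.10 with -0.45 to 0.25. The Cd24 and Krt7 calls in this comparison were near the threshold: Cd24 was lost without ME081_L, ME085_L, ME591L, MC506L or MC508L (0.94 to 0.96) and was 0.475 (adjusted p = 0.586) with 1 run per rat. Krt7 was lost without ME082_L or MC506L (2.51 and 2.50), and without the low count filter (2.695, edgeR adjusted p = 0.0581).

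**Figure D4:**
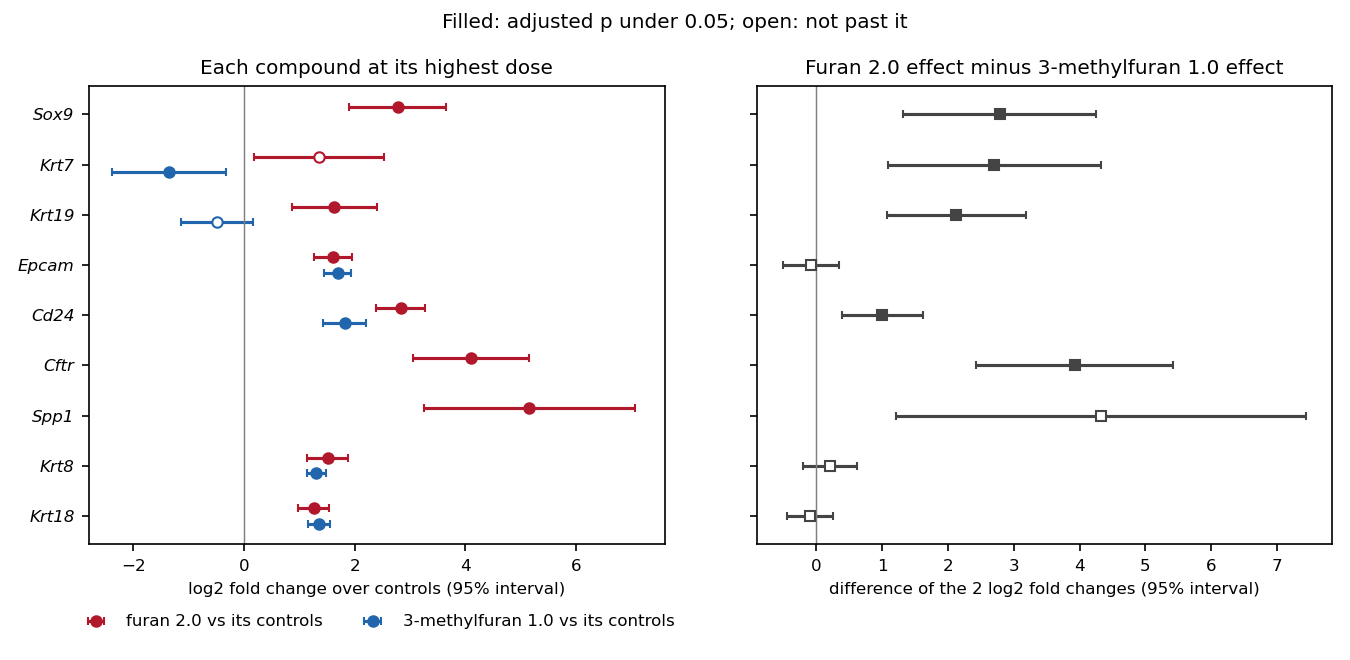
Left: log2 fold change with 95% interval of each gene at furan 2.0 (red) and 3-methylfuran 1.0 (blue), each over its own controls; Sox9, Cftr and Spp1 did not pass the filter with 3-methylfuran and have no blue symbol. Right: the difference between these effects. Filled symbols passed an edgeR adjusted p under 0.05: 8 genes for furan 2.0, 5 for 3-methylfuran 1.0 and 5 for the difference, while Epcam, Krt8 and Krt18 sit near 0 at right.

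The authors' deposited tables give the same genes with their own fold changes. At furan 2.0 the authors' deposited table lists Spp1 at 29.1-fold (adjusted p = 9.98e-09), Cftr at 16.1-fold, Cd24 at 6.93-fold and Krt7 at 1.56-fold (adjusted p = 0.0591). At 3-methylfuran 1.0 the authors' deposited table lists Epcam at 3.19-fold, Cd24 at 3.42-fold and Krt7 at a ratio of 0.56 (adjusted p = 0.0282). At furan 0.5 the authors' deposited table has 3 of the 9 genes under an adjusted p of 0.05, namely Cd24, Spp1 and Cftr. The share of all genes in that table was not computed. Cftr stood there at 1.03-fold (adjusted p = 0.0278). In the edgeR fit Cftr was 3.49-fold at furan 0.5 (log2 1.80 ± 0.60, edgeR adjusted p = 0.0881), with 6 of 7 rats above every control. The deposited fold changes and those of the edgeR fit are therefore not read as 1 measure.

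Genes with related roles were taken as lists around the 9, and are given by count, with fold changes on the log2 scale ± SE. The counts cover genes that passed the filter in that compound's experiment. Some, such as Ggt1 (mean 0.456 CPM in furan controls, 2.17 CPM at furan 2.0), were tested with furan but not with 3-methylfuran. List counts of the compounds are therefore a description and not a comparison. The lists were fitted with TMM scaling only, so small changes may depend on it. Over all genes tested, 24.0% were called higher and 22.5% lower at furan 2.0, and 21.2% higher and 22.5% lower at 3-methylfuran 1.0. Of 16 duct surface, junction and keratin genes tested at furan 2.0, 13 rose and 1 fell, with a median of 1.44. The laminin chain gene Lama5, a part of the sheet under epithelia, rose by 2.39 ± 0.28, and the integrin beta-4 gene Itgb4, which anchors cells to that sheet, rose by 1.51 ± 0.21. Clu, clusterin, fell by 0.22 ± 0.08. At 3-methylfuran 1.0, 8 of 11 rose and 1 fell, with Lama5 up by 1.98 ± 0.27 and Itgb4 by 0.67 ± 0.15. For Itgb4 the furan effect was higher by 0.83 ± 0.26 (edgeR adjusted p = 0.0412), and for Lama5 the difference of 0.40 ± 0.41 did not pass (adjusted p = 0.609).

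Duct transport genes rose in part with furan. Of 12 duct transport and secretin genes tested at furan 2.0, 6 rose and 2 fell. Ggt1, the gamma-glutamyl transferase, rose by 2.23 ± 0.35, the water channel gene Aqp5 by 1.79 ± 0.31, the glucose carrier gene Slc5a1 by 1.69 ± 0.30 and the secretin receptor gene Sctr by 1.47 ± 0.30. Slc4a2, the chloride and bicarbonate exchanger that works beside Cftr in ducts, fell by 0.19 ± 0.05. At 3-methylfuran 1.0, 1 of 9 rose and 1 fell, with Aqp5 at 0.16 ± 0.29 and Sctr at -0.05 ± 0.23, and for both the furan effect was higher (1.62 ± 0.44 and 1.50 ± 0.40, edgeR adjusted p = 0.0156 and 0.012).

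The primary cilium and polycystic duct list rose in 4 of 7 genes at furan 2.0 and fell in 0. Dcdc2, a microtubule-binding protein gene mutated in human neonatal bile duct disease, rose by 3.33 ± 0.45, and Bicc1, an RNA-binding protein gene whose loss causes cystic kidneys in mice, by 2.03 ± 0.27. Bicc1 also rose at 3-methylfuran 1.0 (1.01 ± 0.19), where 2 of 5 rose and 0 fell, and Ift88, a ciliary transport gene, rose with both (0.44 ± 0.10 at furan 2.0 and 0.70 ± 0.11 at 3-methylfuran 1.0).

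Of 9 duct transcription factors other than Sox9 tested at furan 2.0, 2 rose and 4 fell, the share that rose being near the 24.0% of all genes. Ehf, an epithelial ETS factor, rose by 2.18 ± 0.46, and Tead4 by 0.53 ± 0.19. Onecut2 and Foxa1 fell by 0.49 ± 0.10 and 0.86 ± 0.19. At 3-methylfuran 1.0, 1 of 8 rose and 1 fell, with Onecut2 at 0.16 ± 0.09 and Foxa1 at 0.15 ± 0.21, and for both the furan effect was lower (-0.65 ± 0.14 and -1.02 ± 0.28, edgeR adjusted p = 0.00182 and 0.0156).

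Pathways known to act on the duct lineage are given next. Of 13 Notch pathway genes tested at furan 2.0, the target gene Heyl rose by 0.80 ± 0.25 and the receptor gene Notch2 fell by 0.50 ± 0.09, and the other 11 were not called. Heyl fell by 0.63 ± 0.17 at 3-methylfuran 1.0, where 1 of 10 Notch genes rose and 4 fell, and its furan effect was higher by 1.42 ± 0.32 (edgeR adjusted p = 0.00293). Of 15 YAP and TEAD genes and targets, 4 rose and 2 fell with each compound, near the 24.0% of all genes called higher at furan 2.0 and the 21.2% at 3-methylfuran 1.0. Among them the junction protein gene Ajuba rose by 0.70 ± 0.15 at furan 2.0 and by 1.37 ± 0.13 at 3-methylfuran 1.0, a difference of -0.67 ± 0.20 (edgeR adjusted p = 0.0268). Tead1, a partner of YAP, was 0.74 ± 0.17 higher at furan 2.0 and 0.63 ± 0.17 lower at 3-methylfuran 1.0, a difference of 1.36 ± 0.25 (edgeR adjusted p = 0.000244).

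Receptors of osteopontin and ligands and receptors of the ductular reaction follow. Of 9 osteopontin receptor genes tested at furan 2.0, 4 rose and 1 fell. The hyaluronan receptor gene Cd44 rose by 2.38 ± 0.44 and was 0.00 ± 0.23 at 3-methylfuran 1.0, and the integrin genes Itgb6 and Itga8 rose by 2.81 ± 0.52 and 2.03 ± 0.43 at furan 2.0, while Itga5 fell by 0.76 ± 0.14. Of 12 ligand and receptor genes, 3 rose, near the 24.0% of all genes, and 2 fell. Tnfrsf12a, the receptor of the growth signal TWEAK, rose by 1.36 ± 0.24 and Pdgfd by 1.90 ± 0.33, and Egfr fell by 0.46 ± 0.18. At 3-methylfuran 1.0 0 of 8 osteopontin receptor genes rose and 1 fell, and 2 of 9 ligand and receptor genes rose and 3 fell.

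Intestinal epithelial genes were taken as a list because bile duct lesions of furan-treated rats are known to contain intestine-like glands. Of the 6 that could be tested of 16 at furan 2.0, 2 rose and 2 fell. Gpx2, a glutathione peroxidase of gut epithelium, rose by 4.75 ± 0.53 and Fabp2, an intestinal fatty acid carrier, by 1.56 ± 0.26, and Cdh17 fell by 0.41 ± 0.10. At 3-methylfuran 1.0 4 of 6 rose and 1 fell, among them Gpx2 (3.13 ± 0.60) and Fabp2 (1.66 ± 0.24). Of the other lists of cell types, 8 of 15 stellate cell and myofibroblast genes rose and 1 fell at furan 2.0, and 0 of 7 endothelial genes rose and 3 fell. Of 8 pancreatic acinar genes only 2 could be tested, Cpa1 and Cela1, and both fell. Cpa1 varied widely between controls, with a mean of 2.43 CPM and an SD of 2.44. Of 5 mesothelial genes 1 rose, and no T cell gene (of 3) or B cell gene (of 1) was called.

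**Figure D5:**
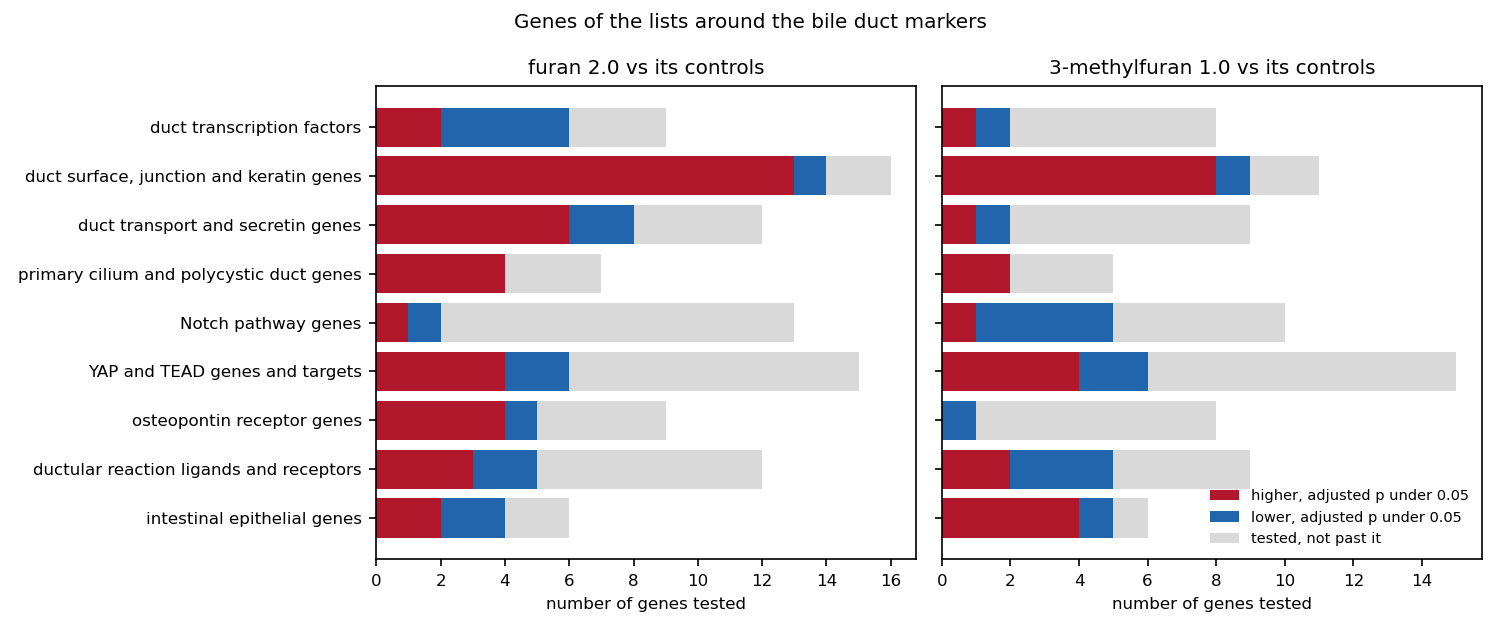
Number of genes tested in each of the 9 lists at furan 2.0 (left) and 3-methylfuran 1.0 (right), split into called higher (red), called lower (blue) and not called (grey) at an edgeR adjusted p under 0.05. The duct surface list is mostly red with both compounds (13 of 16 and 8 of 11), while the transport list is 6 of 12 with furan and 1 of 9 with 3-methylfuran. Some genes passed the count filter with furan alone, so the panels do not hold the same genes and their counts are a description.

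The genes whose pattern over the 38 furan-experiment rats was most like that of the duct members were sought among 10531 genes with a mean of at least 1 CPM. The likeness is Pearson's r between a gene's log2 CPM and the mean z-score of the 7 members other than Krt8 and Krt18. The nearest were Bicc1 (r = 0.947), Kif12 (0.944), Dcdc2 (0.941), Tspan8 (0.937) and Ddr1 (0.931). Kif12 had 2.25 to 18.5 CPM at furan 2.0, against 0.781 to 1.51 CPM in controls, and Ddr1 2.59 to 21.1 CPM, against 0.86 to 2.24 CPM in controls. Over the 32 rats of the 3-methylfuran experiment, with Krt7, Krt19, Epcam and Cd24 as the profile, r was 0.666 for Bicc1, 0.585 for Kif12, 0.218 for Tspan8 and 0.715 for Ddr1. The rats share dose groups and library totals, so r is a description.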

How the data were processed

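Liver mRNA of 70 rats was sequenced in 172 runs, 2 per rat in the furan experiment and 3 per rat in the 3-methylfuran experiment. The authors deposited read counts per gene and run. The submitters' processing notes list STAR 2.7.1a, featureCounts 2.0.0, DESeq2 1.26.0 and Rnor 6.0 without roles. The annotation release, the strand setting and how shared reads were treated are not given in the sources used here. Comparison tables deposited by the authors hold a signed fold change for furan, a plain ratio for 3-methylfuran and an adjusted p-value for each. Per the labels' protocols, the furan libraries were made with another stranded mRNA kit than the 3-methylfuran libraries.

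Runs were summed per rat. Each experiment was fitted on all its groups with edgeR 4.0.16 (R 4.3.3): TMM scaling, filterByExpr with a minimum count of 10, robust quasi-likelihood F test, Benjamini-Hochberg adjustment over all genes tested and a threshold of 0.05. SE is the log2 fold change over the square root of F, and 95% intervals use the residual degrees of freedom. The difference between compounds came from 1 fit of both experiments. CPM are scaled by TMM within an experiment. Controls were placed by sample title. Array data were not analysed here. The procedure was tested on simulated data in which far fewer genes were changed than were called at furan 2.0, as many up as down. That run does not test the scaling under the wider change at that dose.

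The 9 genes and all lists were chosen with earlier results of these data known, so no p is adjusted over a list alone. From each list, the genes called at furan 2.0 with the smallest adjusted p were eligible to be named, at most 4 per direction (3 for lists of cell types); some eligible genes are not reported here. Alternatives were other scalings, no filter, 1 run per rat, limma voom 3.58.1, DESeq2 1.42.0, the 2 groups alone, and each rat left out. Intervals and floors of single counts cover counting error only.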

Additional observations from a re-analysis of the deposited data

Results flagged for a closer look

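In 6 of 81 groups of rats (9 genes in 9 groups), the highest rat lay farther from the rest than Dixon's test allows, and chance gives about 1 group in 20. In the furan experiment, Krt19 was 3.56 CPM in MB046_L at 0.12 mg/kg, where the other rats had 0.805 to 2.11 CPM. Krt18 was 202 CPM in MB045_L at the same dose, where the others had 118 to 157 CPM. Spp1 was 2.88 CPM in MA030_L at 0.03 mg/kg, where the others had 0.0554 to 1.14 CPM.

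With 3-methylfuran, Krt8 was 190 CPM in MB549L at 0.075 mg/kg, where the others had 128 to 155 CPM, and 156 CPM in MA521L at 0.02 mg/kg, where the others had 131 to 142 CPM. Sox9 was 0.44 CPM in MA531L at 0.02 mg/kg, where the others had 0.123 to 0.239 CPM. This Sox9 value rested on 5 reads, beside 2 or 3 in each of the others, where counting error is large. None of these 6 rats belonged to a top-dose or control group.

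The effect of furan 2.0 differed from that of 3-methylfuran 1.0 by the test of the difference itself for Cftr (3.924 on the log2 scale), Sox9 (2.784), Krt7 (2.703), Krt19 (2.126) and Cd24 (1.003). Cftr and Sox9 did not pass the count filter in the 3-methylfuran experiment and entered this test only in the joint fit with the furan rats, where they are high, so their values are a description. Dose, library kit and experiment differ with the compound and cannot be told apart from it.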

How the results depend on the processing

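Of 1353 values of the 9 genes under the alternatives, 1296 kept their direction and side of the threshold, 8 changed sign while not called in either fit, 29 lost the call, 20 gained one and 0 called values reversed. The number called at furan 0.5 was 1 in place of 2, leaving Cd24, without the low count filter, with 1 run per rat and with limma voom. It was also 1 with the 2 groups alone, where Spp1 did not pass the filter and was not tested. At that dose the number ran from 1 to 2 when single rats were left out. DESeq2 called 3 there, adding Cftr, but it also called more of all genes tested at that dose than the main edgeR fit did. At furan 2.0 the 2 groups alone called 6 genes, since Sox9, Cftr and Spp1 did not pass the filter there. The number for the difference between compounds was 2 in place of 5 with 1 run per rat (Krt7 and Cftr), and ran from 3 to 6 when single rats were left out, with 3 (Sox9, Krt19 and Cftr) without control MC506L. The Spp1 difference was called by DESeq2 (4.35, adjusted p = 0.00207), with library totals alone (4.58, adjusted p = 0.0444), and without ME086_L or ME089_L (4.54 each). The Cd24 difference was 0.475 (adjusted p = 0.586) with 1 run per rat. Without the low count filter the difference was called for 4 genes, Krt7 being lost (2.695, edgeR adjusted p = 0.0581). Krt7 at furan 2.0 was called with upper-quartile scaling, library totals, DESeq2 and the 2 groups alone, with adjusted p of 0.00815 to 0.0495. Its fall at 3-methylfuran 1.0 was lost with library totals (-1.12, adjusted p = 0.0558). With 1 run per rat and with the 2 groups alone, Krt7 was not among the 4 genes called at that dose. The cause was not tested. With library totals the median log2 fold change of all genes was 0.417 at furan 2.0, in place of 0.021, and 0.248 at 3-methylfuran 1.0, in place of -0.001. The gene lists were not refitted under other scalings, so falls in them of about this size or smaller may depend on the scaling. Leaving out single rats at furan 0.5, at furan 2.0 against 0.5, and single controls for the difference was chosen after seeing the data. No paired analysis was possible because the groups share no replicate numbers. Depth limits Sox9, Cftr, Spp1 and Krt7, which had 20 or fewer reads in every 3-methylfuran 1.0 and control rat of that experiment.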
